A study of Mus musculus with 45 samples.

Results

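The set described here holds 250 of the 23999 genes in the deposited count tables, selected on measured values, namely a higher level in hepatic stellate cells (HSCs) after 12 days of culture together with levels that differed little between the 2 ends of each in vivo time course. Counts were scaled to CPM, which is counts relative to the library total, so that every library sums to the same value, and L was defined for each gene and group as log2(mean CPM + 1). Of the 23999 genes, 13336 reached an L of at least 3 in some group, and 4777 of these also differed by less than 0.5 in L both between 24 weeks of Western diet (WD) and chow (the difference W) and between 8 weeks of CCl4 and vehicle (the difference C). The 250 members are those of the 4777 with the highest V, the difference in L between d12 and d0 of culture. W, C and V therefore chose the members, and these differences are given as a description only. The identifiers in the tables did not follow the counts, so each gene is called by its line among the data rows, as in row 15503, and none is named.

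Quiescent HSCs lie in the space between hepatocytes and sinusoidal endothelium and store vitamin A as retinyl esters in lipid droplets. After liver injury they lose these droplets, proliferate and take on a contractile, matrix-producing myofibroblast state. Freshly isolated HSCs pass into a similar state when plated on stiff plastic in medium with serum, which is why culture is a common model of activation, although it also adds attachment, serum exposure and the loss of neighbouring liver cells.

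The series holds 45 libraries in 13 groups, all from HSCs of mice labelled as strain C57BL6/J, which the methods give as male C57BL/6JBomTac, and in every group live HSCs were sorted by the autofluorescence of their retinoids. In the WD experiment, 4 libraries each came from mice on chow and from mice fed WD with fructose in the drinking water for 12, 16 or 24 weeks, with every mouse 30 weeks old at harvest. In the CCl4 experiment, 4 libraries came from mice given the corn oil vehicle, and 3, 4 and 3 libraries from mice given CCl4, a solvent toxic to hepatocytes, for 1, 4 or 8 weeks. In the in vitro transdifferentiation experiment (IVT), HSCs of healthy mice gave 3 libraries after 2 hours in suspension (d0) and 3 each after 1, 4, 8 and 12 days on culture dishes in medium with serum. The ages of the CCl4 and IVT mice were not given in the sources used here. A sort by retinoid content leaves out HSCs that have lost their droplets, and this holds for the in vivo groups at harvest but for the IVT groups only at the start of culture. According to the methods, cultured cells were also lysed in another reagent than the freshly sorted cells, and the wells are described as technical triplicates while the RNA is described as biological replicates, so the spread between IVT libraries may be that of wells and not of mice.

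The 16 WD libraries held between 2425443 and 6404105 counts, the 14 CCl4 libraries between 2318311 and 7576527, and the 15 IVT libraries between 3556607 and 7568415. A count of 3, taken here as the floor, equalled between 0.396 and 1.29 CPM. In pairs of replicates, the chi-square per degree of freedom over genes, which is 1 for pure counting noise, was between 1.07 and 2.04 among libraries of d1, d4, d8 and d12. It was between 4.78 and 16.6 on d0, between 3.65 and 29.6 for CCl4 and between 5.45 and 74.9 for WD. Some libraries stood apart from the others of their group: WD 12 weeks replicate A gave values of 35.3 to 70.3 in its pairs against 5.45 to 12.0 among the other 3 libraries, CCl4 4 weeks replicate A gave 19.7 to 29.6 against 5.72 to 15.9, and d0 replicate B gave 14.4 and 16.6 against 4.78. At 16 and at 24 weeks of WD, replicates A and B differed from C and D with values of 27.4 to 60.0 and 28.0 to 74.9, against 5.69 to 17.5 within these pairs. Values without these 3 single libraries are given beside the counts of members that rest on them most. Without d0 replicate B, the members' median V was 2.83, against 2.78, and 107 of them had covered 50% of their rise by d1, against 104.

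Whether a row holds the gene that its identifier names was checked with genes of known expression. Of the 23999 identifiers, 23655 matched a RefSeq symbol. The 1105 rows listed as olfactory receptors, a family of the nasal epithelium that liver cells barely express, reached a mean count of 10 in 56.2% of cases, against 56.4% of all rows. The row listed as B2m, a gene of every nucleated cell, held at most 1 count in any library. The row listed as Des, a stellate cell gene, had a median of 0 and a highest count of 3, and that listed as Alb, the albumin gene of hepatocytes, a median of 1569. The cell type label could therefore not be checked against its defining markers. Rows of the 3 tables were joined by line, and the lowest Spearman correlation between any 2 groups over the joined rows was 0.857, given as a description.

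V of the 250 members ranged from 2.02 to 8.14, with a median of 2.78 and quartiles of 2.35 and 3.87. For all 13336 genes at an L of at least 3 the median of d12 minus d0 was 0.32, so the members are to be read against that shift. The same median was 0.087 with TMM factors and 0.016 with DESeq2 size factors, which are built to bring the typical gene near 0, and the members' median was then 2.62 and 2.55. V was 3 or more in 108 members, 4 or more in 54, 5 or more in 21 and 7 or more in 4. The 5 members just inside the threshold had a V of 2.02 to 2.04, and the 5 eligible genes just outside it 1.99 to 2.02. The members' median was 0 for W and 0.12 for C, where the median of all genes was 0.06 and 0.12. A further 958 genes had a V of at least the lowest member's but had W or C at 0.5 or beyond. Of these, 528 were higher by at least 0.5 in both in vivo models, 205 were higher with CCl4 and within 0.5 with WD, and 74 were higher with WD and within 0.5 with CCl4.

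Over the 250 members together, the median level was low in vivo and on d0 and came near that of all genes in culture. The median L over the 250 members was 1.06 in chow, 0.99, 0.90 and 0.95 at 12, 16 and 24 weeks of WD, 1.39 with vehicle, and 1.34, 1.42 and 1.23 at 1, 4 and 8 weeks of CCl4. In culture it was 1.34 on d0, 3.02 on d1, 4.10 on d4, 4.74 on d8 and 4.93 on d12. The median of all genes was between 4.78 and 5.46 in each of the 13 groups. These medians lie between a class of members near 0 in vivo and a class well expressed there, which are described separately further on, and so shift with small changes in membership. When the rule was repeated, the median L in chow of the 250 chosen was 2.48 without vehicle replicate D, 2.55 and 2.48 without CCl4 8 weeks replicates A and B, and 1.66 without vehicle replicate B. It was 1.75 with TMM factors, 3.69 with a pseudocount of 0.5, 4.20 with in vivo limits of 0.25 and 0.416 with limits of 1, and 0.23 and 4.08 where the level required in some group was 2 and 4. Library medians of log2(CPM + 1) over the members ranged from 0.868 to 1.62 among the 30 in vivo libraries and from 1.26 to 1.43 on d0. They were 2.93, 2.94 and 3.04 on d1 and 4.87, 4.91 and 4.91 on d12, so no cultured library from d1 onwards overlapped with any in vivo or d0 library. The rule favoured a high d12 and a low d0 and held the in vivo ends near their controls. The separation of these medians is therefore largely set by the rule and is a description. Levels were set side by side across tables that were each scaled on their own, and in RNA of sorted or cultured cell pools, more RNA per cell and more cells that hold it cannot be told apart.

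**Figure D1:**
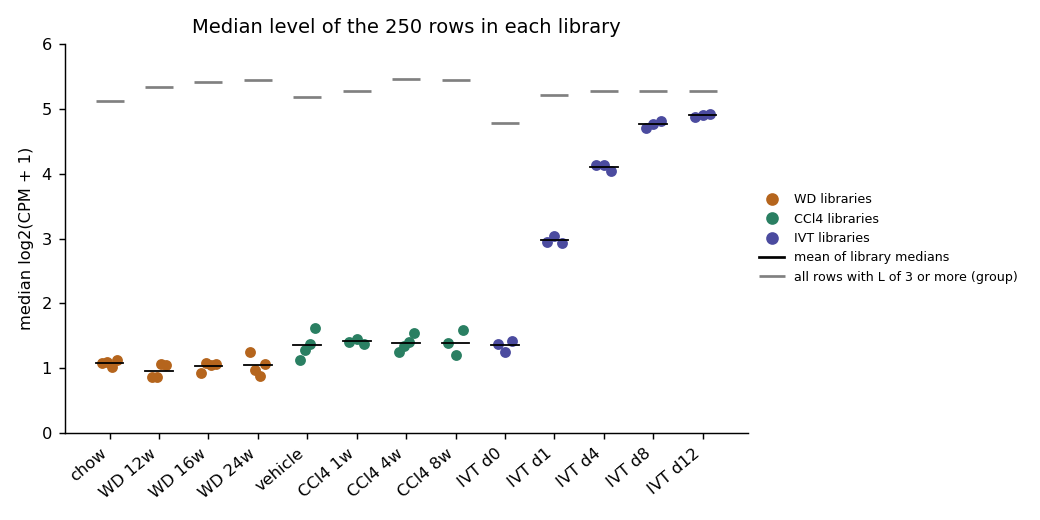
Median log2(CPM + 1) of the 250 rows in each of the 45 libraries, by group; points are libraries, black lines the mean of the library medians, and grey lines the group median of all rows with an L of at least 3. The d0 libraries lie between 1.26 and 1.43 among the in vivo libraries, and the cultured groups climb from about 2.97 on d1 to 4.90 on d12.

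The members took a small but growing share of all counts. It was 0.184% ± 0.017 (SD, n = 3) on d0, 0.684% ± 0.001 on d1, 0.925% ± 0.009 on d4, 1.17% ± 0.013 on d8 and 1.36% ± 0.010 on d12 (n = 3 each). In vivo it was 0.410% ± 0.024 (SD, n = 4) in chow, 0.417% ± 0.028 (n = 4) at 24 weeks of WD, 0.369% ± 0.028 (n = 4) with vehicle and 0.407% ± 0.048 (n = 3) at 8 weeks of CCl4. The share on d0 was thus below that of every in vivo library, the lowest of which held 0.334%. The rule favoured genes that were low on d0 and high on d12, so these shares are a description too. Between 123 and 155 members reached 3 counts in an in vivo library, between 141 and 154 on d0, between 185 and 191 on d1 and between 240 and 242 on d4. All 250 reached 3 counts in each library of d8 and d12.

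The day of onset was read from the course of L. The half-rise day is the first day on which L had covered at least 50% of the way from d0 to d12. It was d1 in 104 members (41.6%), d4 in 80 (32%), d8 in 61 (24.4%) and d12 in 5 (2%). These counts depended on the definition of onset. With onset at 75% of the rise, d1, d4, d8 and d12 held 64, 65, 84 and 37 members. The most common day was then d8 and not d1. With onset at 25% they held 140, 79, 31 and 0. For the classes by half-rise day, the median V was 2.41 for d1, 2.91 for d4, 3.73 for d8 and 3.87 for d12. Their median L on d0 was 2.99, 0.61, 0.087 and 0.17. Because V chose the members, a gene that was high on d0 could enter only with a high final level, which ties these values to each other. Among the 958 genes with as high a V that moved in vivo, the half-rise fell on d1 in 431, on d4 in 344 (35.9%), on d8 in 158 (16.5%) and on d12 in 25 (2.61%), and the difference between the sets was not tested.

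By d1 the members had covered a median of 33.1% of their rise (quartiles 3.39% and 76.8%), by d4 74.8% (47.3% and 91.7%) and by d8 91.1% (80.2% and 98.9%). On d1, 83 members had covered less than 10% of it, on d4 13 and on d8 none of the 250. From d0 to d1, 128 members were higher by at least 1 in L (23.1% of all 13336 genes), from d1 to d4 100 (11.1%), from d4 to d8 89 (3.99%) and from d8 to d12 32 (1.31%). The first and last of these steps use d0 or d12, whose difference V chose the members. By the test described in the next paragraph, also as a description, 117 of the 132 members above the expression threshold were higher and 6 lower on d1 than on d0 (41.5% and 39.2% of all genes tested), 162 of 166 and 0 on d4 (42.5% and 38.8%), 223 of 223 and 0 on d8 (44.2% and 38.5%) and 248 of 248 and 0 on d12 (44.3% and 38.7%). Against d8, 103 of 250 were higher and 18 lower on d12 (12.8% and 13.4%). The contrast of d12 with d0 is V itself, so its count was fixed by the rule. The other contrasts share its d0 or d12 libraries, and none of these counts supports anything by itself. L was higher at every step in 109 members. The highest group mean fell on d12 in 179 members, on d8 in 34, on d4 in 19 and on d1 in 18.

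**Figure D2:**
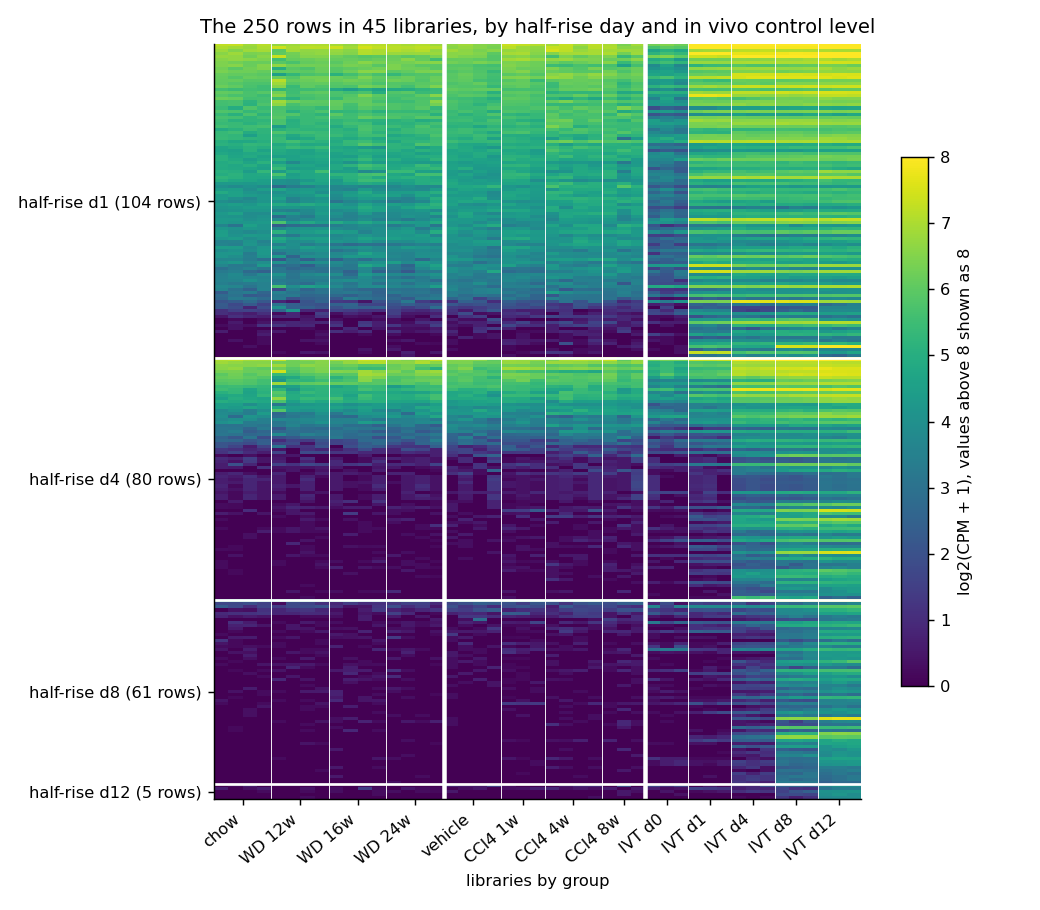
Heat map of log2(CPM + 1) for the 250 rows (vertical) in the 45 libraries (horizontal, by group), with rows ordered by half-rise day and, within it, from high to low control level in vivo. Most of the 104 rows with a half-rise on d1 are well above 0 in vivo and dimmer on d0, whereas 57 of the 61 rows with a half-rise on d8 have a control L under 1.

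The steps from d1 to d4 and from d4 to d8 use groups outside W, C and V, and were tested with edgeR's quasi-likelihood test on the counts of all 15 IVT libraries, with TMM normalization and Benjamini-Hochberg adjustment over all genes tested. A gene was called where its false discovery rate (FDR) was 0.05 or less and its log2CPM averaged more than 2 in the libraries compared. If the cultures were wells of 1 preparation, the calls, standard errors (SE) and adjusted p-values in culture measure the spread of wells and not of mice. A gene that ends well above d0 is more likely to rise at some step than others, and a member near 0 on the earlier day passes the expression threshold mainly through the later day, where it is high. The members' counts are therefore a description and support nothing by themselves. All 250 members passed the low-count filter. Between d1 and d4, 113 of the 165 members above the expression threshold rose and 12 fell, where 33.8% of all genes tested rose and 34.7% fell. Their median log2FC was 0.61, and that of all genes tested was -0.02. Between d4 and d8, 114 of 220 members rose and 4 fell, against a background of 18.1% higher and 15.8% lower, with a median log2FC of 0.32 for members and -0.01 for all genes. Of the 250, 178 rose in at least 1 of these steps and 49 in both, where 36.5% and 6.38% of all 13655 genes that passed the filter did so. Members went up and then down in 1 case and down and then up in 2. With a change of at least 2-fold in addition, 62 members rose and 4 fell between d1 and d4 (11.5% and 4.93% of all genes tested), and 73 rose and 0 fell between d4 and d8 (4.19% and 1.5%).

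The 5 members with the highest V were all under 4 CPM in vivo and differed in the day on which they appeared. Row 15503 had the highest V, 8.14, with 0, 0 and 0.281 CPM in the d0 libraries A, B and C. It held 48.9, 53.4 and 46.9 CPM on d1, 25.4, 25.8 and 24.1 on d4, 183, 178 and 176 on d8 and 293, 323 and 309 on d12. Its course was thus not a steady climb, since all d4 libraries lay below all d1 libraries and all d8 libraries above both. The fall to d4 gave a log2FC of -0.97 (SE 0.087, edgeR adjusted p = 4.07e-08) and the rise to d8 one of 2.84 (SE 0.081, adjusted p = 2.07e-13). Across the 30 in vivo libraries its highest value was 0.753 CPM, in replicate C at 8 weeks of CCl4, a value at the floor of 3 counts for that library.

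Row 18781, with a V of 7.68, appeared latest of these 5. It had no count in any library of d0 or d1, 3.27, 3.18 and 2.20 CPM on d4, 94.0, 97.9 and 97.9 on d8 and 188, 213 and 212 on d12. The groups from d4 onwards did not overlap. Against a floor of 3 counts over the pooled d0 libraries, which is lower than the floor of a single library, d12 was at least 949.5-fold higher. No in vivo library exceeded 0.561 CPM.

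Row 19564 (V of 7.55) also had no count on d0 or d1 and came up on d4, with 16.7, 13.3 and 15.5 CPM, followed by 102, 111 and 111 on d8 and 176, 190 and 195 on d12. Row 785 (V of 6.84) was at 0 on d0 and already at 2.89, 3.11 and 2.26 CPM on d1, then at 25.6, 21.4 and 18.6 on d4, 81.8, 83.8 and 79.7 on d8 and 108, 118 and 115 on d12. Against the same floor over the d0 group, d12 was at least 866.8-fold higher for row 19564 and at least 528.3-fold higher for row 785. In both rows each time point from d4 onwards lay above the one before without overlap, and their highest in vivo values were 0.347 and 0.716 CPM.

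Row 23963 (V of 7.18) had the highest in vivo value of these 5, in a mouse given CCl4. It held 1.72, 1.67 and 3.85 CPM at 1 week and 0.827, 0.440, 0.414 and 2.93 at 4 weeks, against 0.436, 0, 0 and 0 with vehicle. All 1-week libraries lay above all vehicle libraries, and at 8 weeks the values were back at 0.515, 0 and 0.251. In culture it was under 0.3 CPM on d0 and d1, at 27.5, 26.3 and 26.5 on d4, 86.4, 81.4 and 82.8 on d8 and 180, 180 and 169 on d12. Its level on d12 was thus more than 40 times its highest in vivo value of 3.85 CPM.

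A late and a transient course were also present among the members. Row 8666 was the member with the highest V (3.96) among the 5 with a half-rise on d12. It held 1.09, 1.59 and 1.32 CPM on d4, 1.93, 3.30 and 4.62 on d8 and 15.8, 16.2 and 17.5 on d12, and none of the 3 d8 libraries came near d12. In 15 members, L on d1, d4 or d8 exceeded that on d12 by at least 0.5, and in 6 by at least 1.

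The 2 largest such excesses were in rows 11449 and 20628. Row 11449 went from 0.152, 0.142 and 0.151 CPM on d1 to 47.8, 41.1 and 47.5 on d4, then to 24.2, 23.0 and 27.4 on d8 and 4.57, 6.27 and 4.64 on d12. Row 20628 peaked on d1 with 156, 138 and 150 CPM, followed by 48.2, 59.6 and 52.5 on d4, 51.2, 56.3 and 53.6 on d8 and 19.4, 19.1 and 24.9 on d12. In each, the libraries of the highest day did not overlap with those of any other day. The rows were chosen for this excess, so no test of it is given. Their V, taken at d12, was 2.62 and 4.34.

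**Figure D3:**
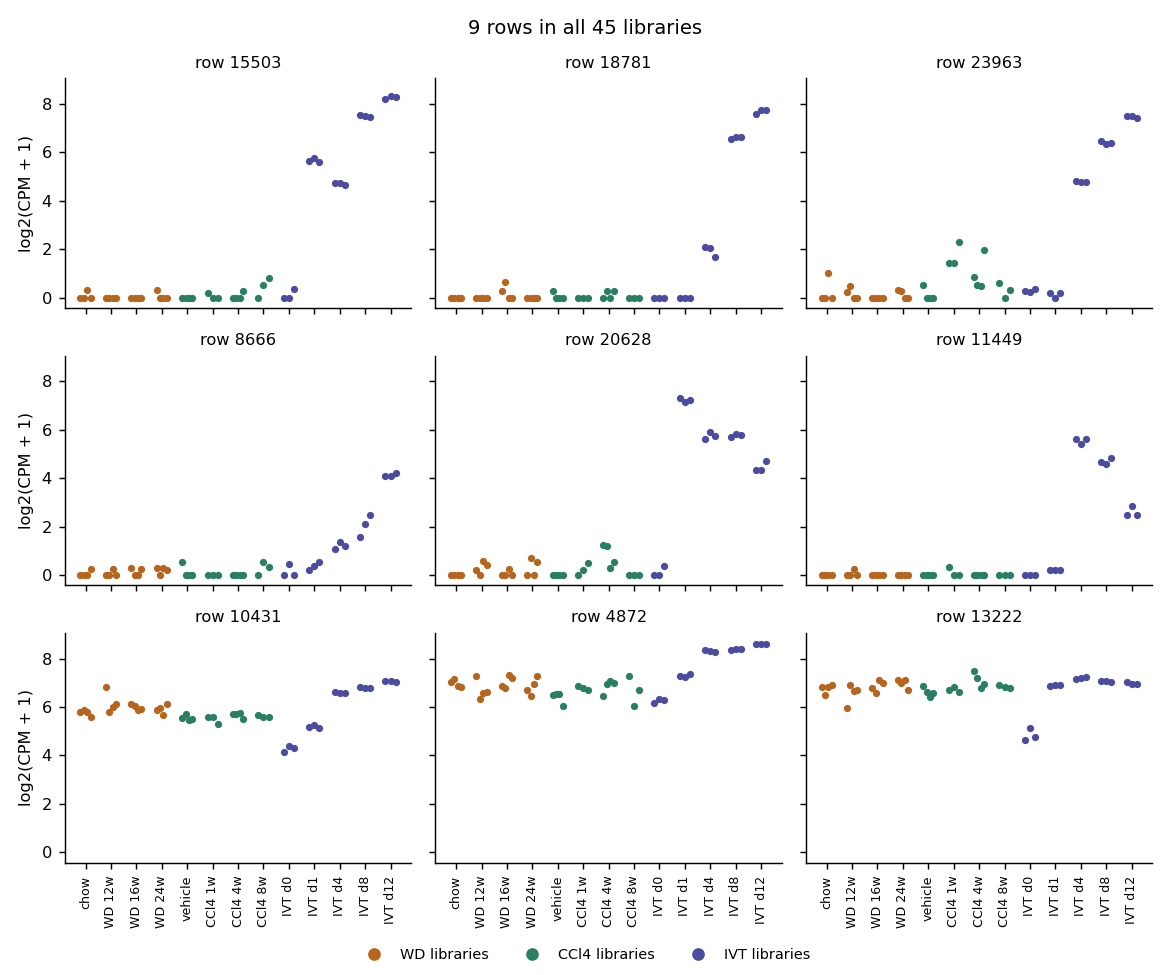
log2(CPM + 1) of 9 rows in all 45 libraries, by group and coloured by experiment; each point is 1 library. The upper 2 rows of panels are near 0 in most in vivo libraries and differ in the day of appearance and in the day of the maximum, while the 3 rows in the bottom panels are well expressed in vivo and lower on d0 than in most in vivo libraries.

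In vivo, the members fell into 2 groups of about equal size with few between. The control level was taken as the mean of L in chow and vehicle, and limits of 1 and 3 were chosen after the levels had been seen. It was under 1 in 50% of the members, between 1 and 3 in 16 (6.4%) and 3 or more in 109 (43.6%). With limits of 0.5 and 2 these counts were 101, 33 and 116, and with limits of 1.5 and 4 they were 130, 34 and 86. Of all 13336 genes at an L of at least 3 in some group, 1195 had a control level under 1 and 10450 one of 3 or more. A gene near 0 CPM in vivo meets the limits on W and C more easily, since 1 is added to CPM. The split of the members is therefore partly set by the rule and is a description. L differed by at least 0.5 between chow and vehicle in 35 members.

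The 50% of members with a control level under 1 were close to undetected in the mice and d0 libraries. Their median L was 0.065 in chow, 0.145 with vehicle and 0.129 on d0, and 106 of them stayed under 1 in each of the 8 in vivo groups. In culture their median L was 0.53 on d1, 2.20 on d4, 3.59 on d8 and 4.16 on d12, and their half-rise fell on d1 in 15, on d4 in 48, on d8 in 57 and on d12 in 5. Each of them had all d12 libraries above all 30 in vivo libraries, which held for 27.6% of all 1195 genes at an L of at least 3 with a control level under 1. V chose them for a high d12, and W and C held both in vivo ends near these low controls. This count is therefore largely set by the rule and is given as a description. Of all 250 members, 46 had fewer than 3 counts in each in vivo library, and 7 had no count in any of these libraries. Their absence from the mice is thus a limit set by depth, at 0.396 to 1.29 CPM for a floor of 3 counts, which covers counting error only. No count of calls is given for this class, because its members passed the expression threshold mostly through the later day of a step.

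The 109 members with a control level of 3 or more were ordinary expressed genes in the mice and stood lower on d0 than in freshly sorted control cells. Their median L was 4.83 in chow, 4.90 at 24 weeks of WD, 4.67 with vehicle and 4.84 at 8 weeks of CCl4, but 3.53 on d0. The median of d0 minus control was -1.28 (quartiles -1.63 and -0.85), with 103 of 109 lower on d0 and 71 lower by at least 1. For all 10450 genes with a control level of 3 or more the median was -0.35, and 24.3% were lower by at least 1. Without d0 replicate B the members' median was -1.38, with 105 lower and 76 lower by at least 1. The rule favoured genes that were low on d0, and the d0 cells differed from the in vivo controls by experiment, by 2 hours in suspension and by freezing, so these cannot be told apart.

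In culture these 109 members had a median L of 5.27 on d1, above both control medians, and of 5.78, 5.96 and 6.02 on d4, d8 and d12. Their half-rise fell on d1 in 83, on d4 in 25 and on d8 in 1. Set against the in vivo control and not against d0, the median difference on d12 was 1.11 (quartiles 0.65 and 1.62), where V had a median of 2.31. It was at least 1 in 59 of the 109 (15.3% of all genes with such a control level), and 7 were below the control on d12. In 67, all d12 libraries lay above all 30 in vivo libraries, against 18.5% of all such genes. Between d1 and d4, 66 of 108 rose and 9 fell (33.8% and 34.7% of all genes tested), and between d4 and d8, 26 of 109 rose and 3 fell (18.1% and 15.8%), with a median log2FC of 0.13 in the latter step. In the latter step the share that rose was thus near that of all genes and the share that fell was below it. Leaving the classes aside, 204 of the 250 members had all d12 libraries above all in vivo libraries (18.9% of all genes) and 46 overlapped with them. The rule favoured a high d12 and held the in vivo ends, so all counts of d12 against in vivo levels are a description. The 204 became 210 without WD 12 weeks replicate A and 207 without CCl4 4 weeks replicate A, and the 67 became 71 and 70.

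**Figure D4:**
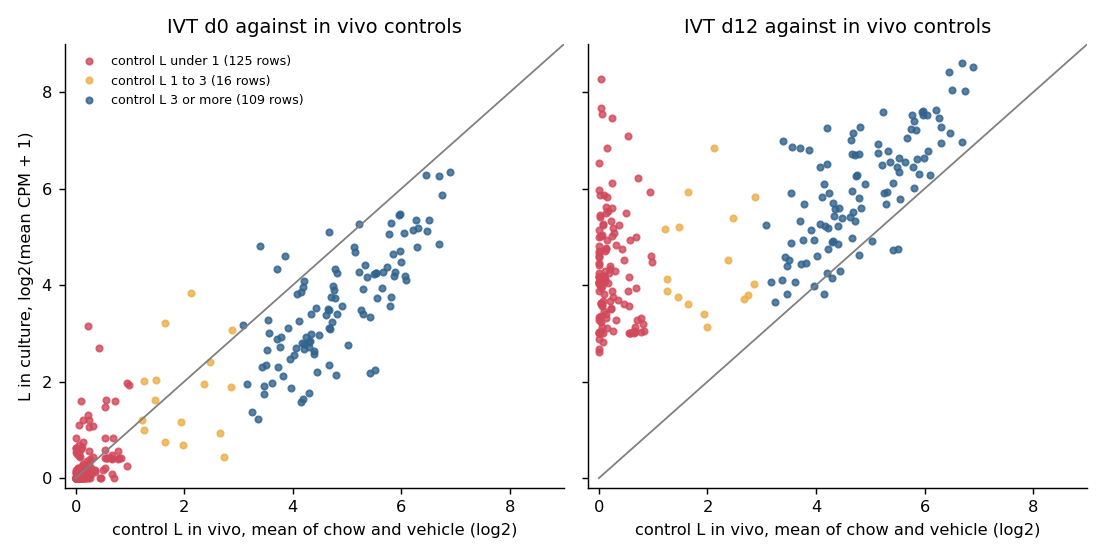
L on d0 (left) and on d12 (right) against the in vivo control level, the mean of L in chow and vehicle, for the 250 rows; the line marks equal levels and colours give the class of control level. On d0, 103 of the 109 rows with a control level of 3 or more lie under the line, and on d12 only 7 of these do, while all rows with a control level under 1 lie far above it.

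Single rows show the size of this dip. Row 10431, at the middle of the members' ranking by V (2.78), held 16.4, 20.1 and 18.6 CPM on d0. Chow gave 55.2, 58.5, 54.1 and 46.8 CPM and vehicle 45.8, 51.0, 43.3 and 44.8. On d12 it held 134, 132 and 130, above the highest in vivo value of 114 CPM, which came from WD 12 weeks replicate A. The d0 libraries thus lay below each in vivo library and the d12 libraries above each of them. Its rise from d1 to d4 had a log2FC of 1.44 (SE 0.069, edgeR adjusted p = 1.5e-11).

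Row 13222, among the 3 members with the highest control level, held 23.8, 33.9 and 26.4 CPM on d0 and 129, 122 and 123 on d12. In vivo its lowest, median and highest values were 60.7, 112 and 179 CPM. Its d12 libraries thus lay within the in vivo range, and its V of 2.11 goes with a low d0 and not with a d12 level beyond that of the mice. Row 1795, the last member by V, had d0 values of 15.6, 15.3 and 11.2 CPM, d12 values of 60.0, 57.7 and 62.8 and an in vivo range of 20.3 to 85.2 CPM. The first gene outside, row 6401, had 5.01, 6.7 and 3.37 CPM on d0 and 24.1, 23.1 and 23.2 on d12, within an in vivo range of 11.6 to 27.3.

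The highest d12 levels also came from members that were well expressed in vivo. Row 4872 held 70.3, 79.8 and 77.0 CPM on d0 and 389, 393 and 390 on d12, with an in vivo range of 65.6 to 161 CPM. Row 10871 reached 374, 361 and 364 CPM and row 11634 330, 341 and 350 on d12, against highest in vivo values of 163 and 160 CPM. In all 3 rows every d12 library was above every in vivo library, by more than 2-fold over the highest. Row 4803, high in vivo with up to 179 CPM, went from 50.3, 64.4 and 58.5 CPM on d0 to 268, 271 and 269 on d1 and 253, 263 and 261 on d12, so that it had reached its d12 level on d1. Between d1 and d4 it had a log2FC of -0.13 (SE 0.064, edgeR adjusted p = 0.077).

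The members with a high control level held most of the members' counts in chow, on d0 and on d12. Pooled over the libraries of each group, they accounted for 98.3% of the members' counts in chow, 94.5% on d0 and 69.6% on d12. Those with a low control level accounted for 0.451%, 2.77% and 27.0%. The 16 members between these classes had a median L of 1.91 in chow, 1.92 with vehicle, 1.76 on d0 and 4.08 on d12, with a half-rise on d1 in 6, on d4 in 7 and on d8 in 3. In 12 of the 16, all d12 libraries lay above all in vivo libraries. The share among all genes with a control level between these limits was not counted, so this is a description only.

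**Figure D5:**
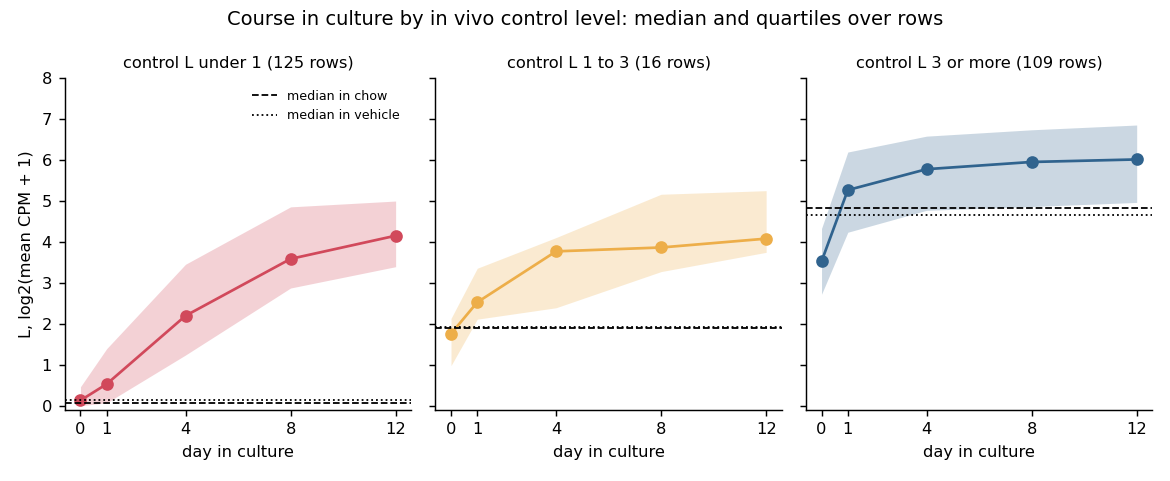
Median L (line) and quartiles (band) over the rows of each class of control level on d0, d1, d4, d8 and d12, with the median in chow (dashed) and vehicle (dotted). The 109 rows with a control level of 3 or more pass the control lines by d1, where their median is 5.27, while the rows with a control level under 1 have a median of 0.53 on d1 and 4.16 on d12.

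The rule set limits only at the last in vivo time points, and the intermediate ones were examined for passing changes. These comparisons share the chow or vehicle libraries with W or C and are a description. At 12 weeks of WD, L was higher than in chow by at least 1 in 5 members (15.4% of all genes), and at 16 weeks in 0 (19.4%). At 1 week of CCl4 it was higher than with vehicle by at least 1 in 3 members (9.75%), and at 4 weeks in 0 (16.4%). At 12 weeks of WD, 2 of the 250 members rose by at least 1 without overlap of libraries (14.7% of all genes). At 1 week of CCl4, 2 of the 250 did so (9.47%). Among all genes with such a rise, libraries did not overlap in 1958 of 2058 and in 1263 of 1300. For the members this was 2 of the 5 and 2 of the 3. In all, 8 members were higher by at least 1 at some intermediate time, 6 were lower by as much, 236 stayed within 1, and none differed by 2. Without WD 12 weeks replicate A, the count at 12 weeks was 1 and that at any time 4, and without CCl4 4 weeks replicate A 3 members were higher at 4 weeks and 10 at any time. Since 1 is added to CPM, differences in L are small for members near 0 CPM in vivo. Row 23963 had a mean of 0.109 CPM with vehicle and 2.41 CPM at 1 week of CCl4, a difference in L of 1.62. The counts by size therefore do not show that members with a control level under 1 held their level. Such low levels were rarer among all genes, so the shares of members and of all genes are not on an equal footing.

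By edgeR calls, given as a description, 8 members were higher and 5 lower at 12 weeks of WD than in chow (20.7% and 7.36% of all genes tested), 1 and 9 at 16 weeks (30.3% and 26.7%) and 0 and 2 at 24 weeks (26.4% and 18.3%). Against vehicle, 15 were higher and 9 lower at 1 week of CCl4 (15.6% and 11.1%), 11 and 8 at 4 weeks (25.6% and 25.9%) and 0 and 6 at 8 weeks (23.9% and 26.3%). The contrasts at 24 weeks of WD and at 8 weeks of CCl4 are W and C themselves, whose low counts the rule fixed, and the others share their control libraries. Between 114 and 116 members were above the expression threshold in these comparisons, and of the 128 members that passed a filter 30 were called higher and 27 lower at 1 or more of the 4 intermediate times, where 41.1% and 36.5% of all genes that passed a filter were. Without WD 12 weeks replicate A, 1 member was higher and 1 lower than in chow at 12 weeks, and 27 were higher and 27 lower at any of these times. Without CCl4 4 weeks replicate A, 7 were higher and 9 lower than with vehicle at 4 weeks, and 30 were higher and 28 lower at any time.

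The largest passing rise after that of row 23963 was in row 20410, with 5.29, 16.9, 0.849 and 0.666 CPM at 12 weeks of WD and 1.11, 1.95, 2.04 and 1.82 in chow. It came from replicates A and B, and the groups overlapped. Row 10531 held 1.58, 1.37 and 1.5 CPM at 1 week of CCl4 and no count in any vehicle library, without overlap, and 11.4, 11.1 and 10.3 CPM on d12.

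The contrasts of 16 with 12 weeks of WD and of 4 weeks with 1 week of CCl4 use no group of W, C or V. The level that the rule required in some group could still be met in any of them. Both contrasts were tested in the same way, each in a fit over its own experiment. Of the 250 members, 124 passed the low-count filter in WD and 1 more in CCl4, and 115 in each were above the expression threshold. These 115 were the 109 members with a control level of 3 or more and 6 with a level between 1 and 3, so no member with a control level under 1 could be called. Between 12 and 16 weeks of WD, 3 members rose and 6 fell, where 9.46% of all genes tested rose and 3.75% fell, with a median log2FC of -0.004 for members and -0.10 for all genes. Between 1 and 4 weeks of CCl4, 12 members rose and 18 fell, where 22.8% rose and 23% fell, with medians of 0.01 for both. A gene held to within 0.5 at both ends of a course can be expected to move less between its inner points. The WD counts were small and rested on single libraries. In WD, 0 members rose without 12-week replicate C or 16-week replicates C or D, 1 rose without 12-week replicate B, 6 and 5 rose without 16-week replicates A and B, and 2 fell without 16-week replicates C or D. Without 12-week replicate A, which stood apart, 3 rose and 4 fell. In CCl4, 10 rose and 15 fell without 4-week replicate A, which stood apart, while 6 rose and 10 fell without 1-week replicate A, and 7 rose and 6 fell without 1-week replicate B. When libraries were scaled by their totals, 18 rose and 6 fell in CCl4, and with DESeq2 9 rose and 6 fell in WD, so which direction held more members depended on the scaling and the tool. Among members above the expression threshold, the largest changes were a log2FC of 1.33 and -1.16 in WD and of 1.31 and -1.06 in CCl4. Row 20410, a member below that threshold with a mean log2CPM of 1.91, had a log2FC of -1.90 in WD (SE 0.78, edgeR adjusted p = 0.12).

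Since the libraries that chose the members also gave V, the rule was repeated without the libraries of 1 replicate letter, and V was then read in the letter left out. Without A, B or C, the new 250 shared 202, 191 and 209 rows with the set described here. Their median V in the letter left out was 2.74, 2.52 and 2.90, against 2.79, 2.64 and 2.73 in the libraries that chose them. V in the letter left out was above 0 in all 250 rows each time and at least 1 in 248, 250 and 250, where 28.2%, 27.8% and 30.4% of all genes were at least 1. The in vivo limits held less well, with W within 0.5 in 205, 195 and 182 rows and C within 0.5 in 194, 142 and 191. If the cultures were wells of 1 preparation, this repeat covers wells and not mice.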

How the data were processed

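Poly(A)-selected RNA of sorted or cultured mouse HSCs was sequenced. The authors aligned the reads to mm10 with STAR and deposited raw counts per gene, made with Homer from reads in exons, ignoring strand, keeping up to 3 reads at any position, with no normalization. Tool versions are not given in the sources used here. The labels gave the groups and letters, and columns were matched to them by the column titles. The command line in the header of each of the 3 tables lists the same source directories although the column titles differ, and this was not resolved. Each library held between 2318311 and 7576527 counts. The members and lists were chosen with earlier results of these data known. CPM, L, W, C, V and half-rise days were computed in Python 3.11.15 (pandas 2.3.3, numpy 2.4.6) with a pseudocount of 1. The 4 contrasts of groups outside W, C and V were tested in R 4.3.3 with edgeR 4.0.16 (TMM, filterByExpr, quasi-likelihood test, Benjamini-Hochberg adjustment over all genes tested, 1 fit per experiment), and the test was checked on simulated data. The filter kept 13655 genes in IVT, 13510 in WD and 13513 in CCl4, with a biological coefficient of variation of 0.077, 0.300 and 0.208. The value for IVT may be that of wells and not of mice. Rows shown were the 5 members with the highest V, those ranked 125 and 250, the first row outside, the 3 highest on d12, the 3 highest control levels, the highest V for each half-rise day, the 3 largest intermediate rises in vivo and the 2 largest excesses over d12. Alternatives were DESeq2 1.42.0, other scalings, filters, thresholds, pseudocounts, onset definitions and in vivo limits, the compared groups alone, the replicate letter as a block, and leaving out libraries. Some alternatives were added after seeing the data: the letters held out, the classes of control level and the libraries named as standing apart. No sequence is shown, since none can be tied to a row.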

Additional observations from a re-analysis of the deposited data

Results flagged for a closer look

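In groups of 4 libraries with a highest value of at least 3 counts in the smallest library of the group, a library was singled out where its gap to the nearest other library in log2(CPM + 1), divided by the range of the group, was above Dixon's critical value. Of 70 groups tested over the rows shown, the members' share of counts and their median, 2 were singled out, and chance alone gives about 1 in 20. Row 23963 had 1.02 CPM in chow replicate C, where the other 3 chow libraries had 0. Row 4872 had 65.6 CPM in vehicle replicate D, where the other 3 vehicle libraries had 90.04 to 92.31.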

How the results depend on the processing

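The membership depended most on the in vivo limit, with 116 of the 250 kept at a limit of 0.25 and 138 at 1. TMM factors kept 229, DESeq2 size factors 231, pseudocounts of 0.5 and 2 kept 203 and 211, and leaving out single libraries kept 213 to 243. Of the half-rise days, d1 held 64 members when onset was set at 75% of the rise. d8 held 36 with a pseudocount of 0.5, 40 with a level of 4, 31 with onset at 25% and 37 with onset at 1 above d0. d12 held 10 with a pseudocount of 2, 9 and 2 with levels of 2 and 4, 3 and 8 without letters B and C, 0 and 37 with onset at 25% and 75%, and 1 with onset at 1 above d0. A passing in vivo rise was counted in 64 members at 0.5, in 0 at 2 and in 30 by edgeR calls. The cause was not tested.

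Between d1 and d4, 182 members rose with no expression threshold, 62 rose and 4 fell at 2-fold or more, and 19 fell with the compared groups alone. Between d4 and d8, 73 rose and 0 fell at 2-fold or more, and 13 fell with the compared groups alone. Between 12 and 16 weeks of WD, 0 rose and 1 fell at 2-fold or more, 1 rose and 2 fell with the compared groups alone, 9 rose and 6 fell with DESeq2, and leaving out single libraries gave 0 to 6 higher and 2 to 7 lower. Between 1 and 4 weeks of CCl4, 2 rose and 2 fell at 2-fold or more, 18 rose and 6 fell with library totals, and leaving out single libraries gave 6 to 14 higher and 6 to 18 lower.

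With the replicate letter as a block, 6 members rose and 7 fell in WD, 10 rose and 11 fell in CCl4, 112 rose and 12 fell between d1 and d4, and 110 rose and 4 fell between d4 and d8. Deviations of libraries with the same letter correlated by -0.36 to 0.21 in WD, by -0.09 to 0.06 in CCl4 and by -0.0001 to 0.041 in IVT, so the letters were not taken as pairs, although each d8 library correlated best with the d4 library of its own letter. The balance of members that rose and fell turned in CCl4 with library totals and without 1-week replicate B, and in WD with DESeq2. No member with a control level under 1 was above the expression threshold in the in vivo tests, and at a floor of 0.396 to 1.29 CPM counts of 0 in these members do not show absence.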
